A study of Mus musculus with 2 samples.

Results

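The clustered protocadherin genes of the mouse were followed through a map of the histone variant H2AZ in the embryonic brain. They were taken as all protein-coding genes of the GRCm38 annotation whose symbols begin with Pcdha, Pcdhb or Pcdhg, which gave 57 of 21774 protein-coding genes, 14 in the Pcdha subcluster, 22 in Pcdhb and 21 in Pcdhg. All lie side by side on chromosome 18, from 36930285 to 37841873. Every listed peak across this stretch and 100 kb on either side was included, 15 of the 21546 peaks used. The rule that chose the genes used no peak value, but it was set with earlier results of these data known.

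The peaks came from chromatin immunoprecipitation with sequencing (ChIP-seq) against H2AZ in neural progenitor cells from the brain of C57BL/6 embryos at embryonic day 13. The series had 1 H2AZ ChIP library and 1 input library of the same cells, and no other allele or treatment is named. The values were a single list of peaks, each with a position and a score from the authors. With 1 library per group no difference has a replicate check, no test was made, and ChIP was not compared with input here. The number of reads was unknown.

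Clustered protocadherins are cell surface adhesion proteins that bind copies of themselves on neighbouring membranes, and they give neurons of the brain an identity by which branches of the same cell avoid each other. Each Pcdha and Pcdhg gene has its own promoter and its own large variable exon, which is spliced to constant exons that the whole subcluster shares at its 3' end. The Pcdhb genes have a single coding exon each and no shared exons. Most of these promoters are known to be chosen at random in each neuron. The C-type genes, namely Pcdhac1, Pcdhac2, Pcdhgc3, Pcdhgc4 and Pcdhgc5, are known to be used in a more constant way. H2AZ takes the place of H2A in some nucleosomes, often beside transcription starts.

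Few clustered protocadherin genes had an H2AZ peak at their start, and 4 of the 7 that did were of the C-type. A gene was counted if a peak overlapped, by at least 1 bp, the 1 kb on either side of its lower boundary, which is the side of the variable exon and is called its start here. The genes with a start peak were Pcdha12, Pcdhac1 and Pcdhac2, then Pcdhb1, then Pcdhga2, Pcdhgc3 and Pcdhgc4. That is 7 of 57 genes, or 12.3%, against 53.1% of 17492 protein-coding genes whose strand was known. By subcluster the counts were 3 of 14 in Pcdha (21.4%), 1 of 22 in Pcdhb (4.55%) and 3 of 21 in Pcdhg (14.3%). By either boundary the count was the same 7 genes, against 55.4% of all protein-coding genes. None of the 57 genes had a peak within 1 kb of its upper boundary. These are not 57 separate positions. The upper boundary is shared within 10 bp by 13 of 14 Pcdha genes, and likewise by all 21 Pcdhg genes.

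**Figure D1:**
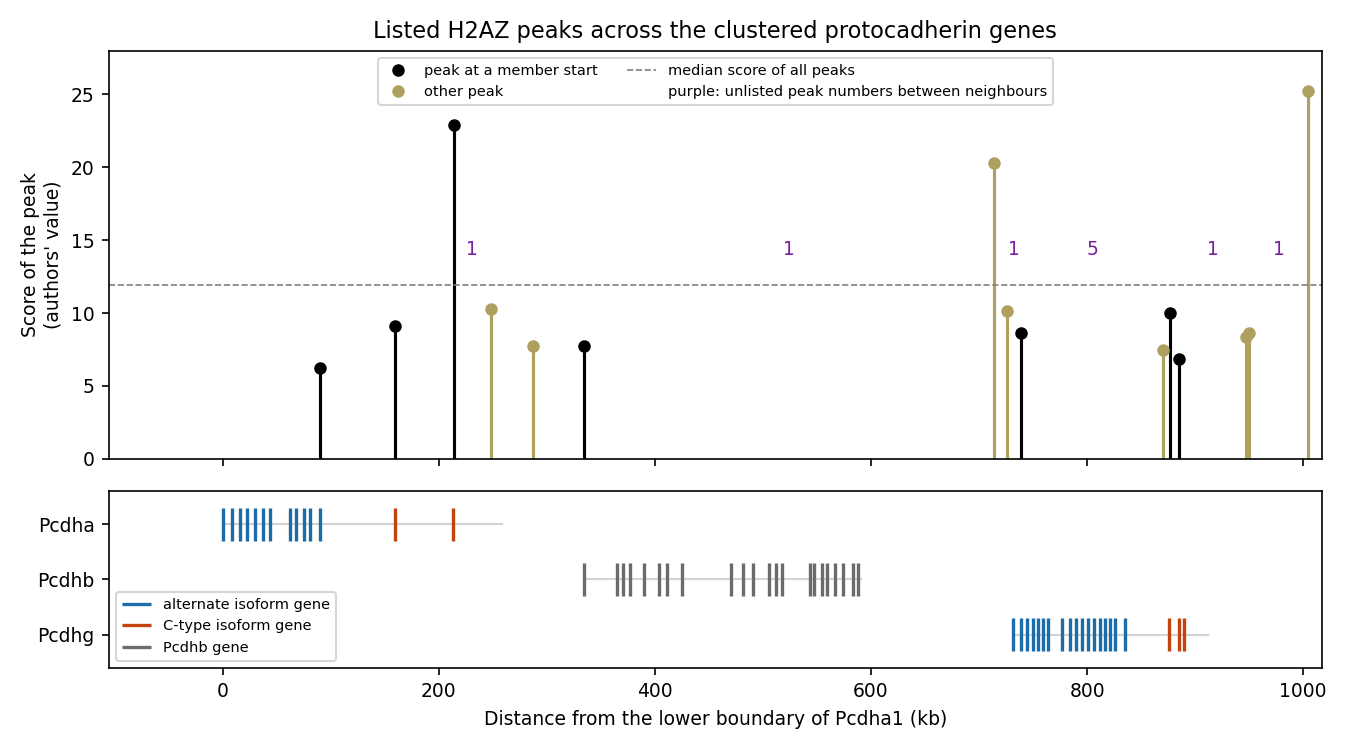
The upper panel plots each listed peak at its distance from the lower boundary of Pcdha1 (kb, horizontal axis) against its score (vertical axis), with purple figures for the peak numbers missing from the list between neighbouring peaks. The lower panel marks the start of each gene by type. Peaks stand at the last 3 starts of Pcdha, at the beginning of Pcdhb and near both ends of Pcdhg, though not at its outermost starts. A gap of 377 kb lies over the remaining Pcdhb genes.

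Among the C-type genes 4 of 5 had a start peak, against 3 of 52 other clustered genes (5.77%). This division was made after the peaks were seen, so the contrast is a description of this list only. The highest score belonged to Pcdhac2, known as the alpha isoform used by serotonergic neurons. Its peak scored 22.91 and ran from 37142861 to 37145335, a width of 2475 bp, with its midpoint 420 bp above the start. It ranked 2076 by score among the 21546 peaks, and it alone among the start peaks of the clustered genes lay above the list median of 11.9. Pcdhac1, the other C-type gene of the alpha subcluster, had a peak of score 9.11 from 37089242 to 37091023, with its midpoint 4 bp below the start.

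Pcdhgc3, a gamma isoform linked to Wnt signalling and to dendrite branching, had the widest peak of the locus. It was 3564 bp wide, from 37805649 to 37809212, and scored 10.01. Only 317 of 21546 peaks (1.47%), this one included, were at least as wide. The peak reached from 761 bp below the start to 2802 bp above it, so it was the start peak with its midpoint farthest into a gene, at 1020 bp. A separate peak of score 7.46, from 37800228 to 37801591, lay 5501 bp below the same start by its midpoint. Pcdhgc4, the gamma isoform on which neuron survival is known to depend in the mouse, had a narrower peak of score 6.86 from 37814466 to 37815830. Pcdhgc5 was the C-type gene without a peak at its start. The nearest one, that of Pcdhgc4, ended 3716 bp away, and Pcdhgc5 was also the one Pcdhg gene with no peak anywhere in its annotated span.

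Of the 30 alternate isoform genes, 2 had a start peak. In the alpha subcluster this was Pcdha12, whose start lies closest to the C-type genes. Its peak had the lowest score of the locus, 6.26, and ran from 37019725 to 37021170. Pcdha1 to Pcdha11 had none, and their starts lay between 8867 and 89440 bp from the nearest peak. In the gamma subcluster it was Pcdhga2, the next to lowest gene in position, with a score of 8.65 from 37668528 to 37669838. None of the 6 Pcdhgb genes had a start peak, nor did 11 of 12 Pcdhga genes. The alternate genes still held peaks inside their annotated spans. Every Pcdha and Pcdhg gene other than Pcdhgc5 spans at least 1 peak. Each span runs to the shared end, so that of an alternate gene takes in start peaks of the C-type genes above it.

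In the beta subcluster Pcdhb1, which stands apart from the others at its lower edge, had a peak of score 7.73 from 37264302 to 37265913. The other 21 genes, from Pcdhb2 to Pcdhb22, had none at a boundary and none inside. The stretch without a listed peak ran from 37265914 to 37643312 and was 377 kb long. Of 21031 gaps between neighbouring peaks on the autosomes, 1207 (5.74%), this one included, were at least as long, and the median gap was 38.4 kb. The gap held 22 whole protein-coding genes, the 21 Pcdhb genes and Slc25a2. There were 47 gaps with at least as many, this one included. Some of these are long and hold many genes with few peak numbers missing, such as 7248909 bp with 240 genes on chromosome 17 (2 missing) and 3846794 bp with 54 genes on chromosome 4 (1 missing). Whether the list covers such regions was not tested, so a long stretch without a listed peak, over Pcdhb or olfactory receptor genes, is not shown to lack H2AZ. Whether reads could be placed uniquely at the similar Pcdhb genes was not tested.

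The position of the peaks around the starts was then measured. Among the 7 genes the midpoint lay above the start in 6, at a median of 217 bp, against 67.5% of 9284 genes with a start peak and known strand, at a median of 118 bp (quartiles -57 and 351 bp) in the direction of transcription. The spacing of the genes was also compared, as a description. For the 7 genes with a start peak the median distance to the nearest other start of the family was 9372 bp (range 4467 to 53542 bp), against 5538 bp (4154 to 13569 bp) for the 50 genes without a start peak. The starts of Pcdhac1 and Pcdhac2 lay 53542 bp from each other and that of Pcdhb1 29842 bp from Pcdhb2. Pcdhgc4 and Pcdhgc5, 4467 bp apart, were closer than most alternate genes were to their nearest start, and 1 of them had a peak. For the alternate genes that distance had a median of 5413 bp (range 4154 to 9807 bp).

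**Figure D2:**
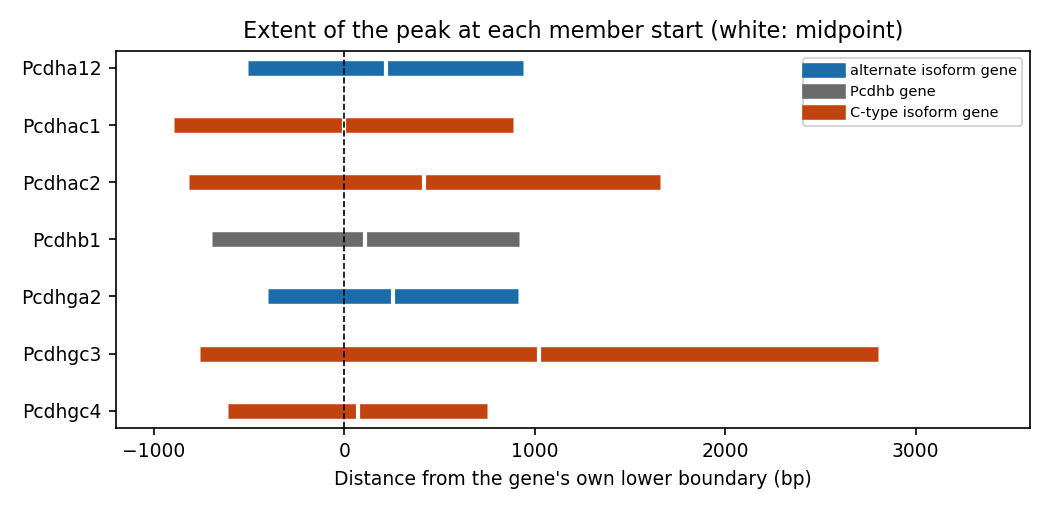
Bars show how far the peak at each of the 7 clustered protocadherin starts reaches below (negative) and above (positive) the gene's own lower boundary, in bp, coloured by gene type, with the midpoint in white. All 7 bars cross the start, and the Pcdhgc3 bar reaches farthest above it, to 2802 bp.

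The peaks of the clustered genes scored low for peaks at starts. The 7 start peaks had scores of 6.26, 6.86, 7.73, 8.65, 9.11, 10.01 and 22.91, with a median of 8.65. Peaks at starts of protein-coding genes had a median of 17.1 (quartiles 12.8 and 21.5), and all peaks one of 11.9 (7.95 and 17.9). Of the start peaks, that of Pcdhac2 lay above the upper quartile of the start peaks of other genes and the remaining 6 lay below the lower quartile. Counting only peaks at or above the list median left 1 of 57 clustered genes, against 42.8% of protein-coding genes with known strand. Widths were also below those at other starts, with a median of 1612 bp (1311 to 3564 bp) against 2207 bp.

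**Figure D3:**
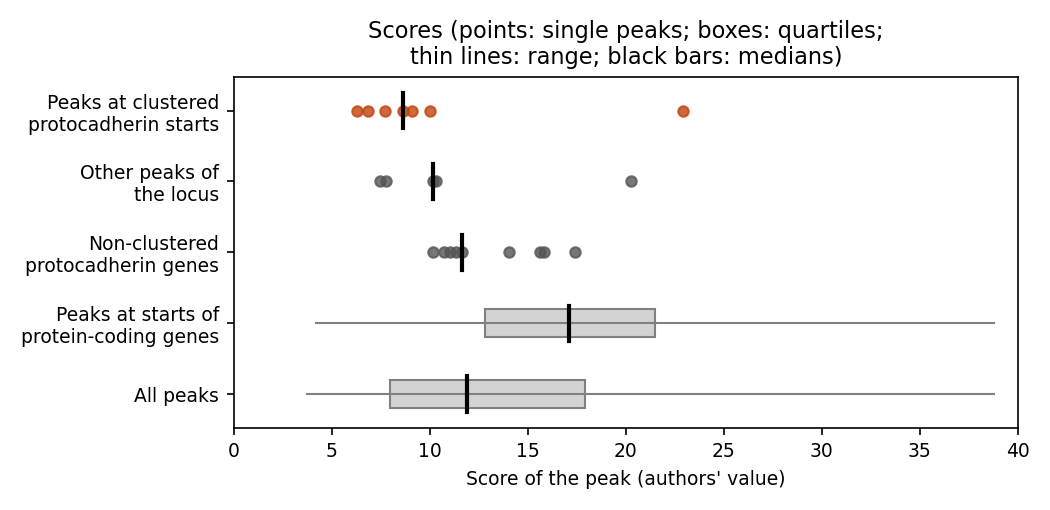
Scores of single peaks (points) at clustered protocadherin starts, of the other peaks of the locus and of boundary peaks of non-clustered protocadherin genes, beside quartile boxes and ranges for start peaks of protein-coding genes and for all peaks. Black bars are medians, 8.65 for the clustered starts and 17.1 for starts of protein-coding genes.

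As a stretch of DNA, the locus held 12 peaks in 912 kb, or 13.2 per Mb (exact Poisson 95% interval 6.80 to 23.0), against 7.83 on chromosome 18 (7.26 to 8.44) and 8.76 on all autosomes (8.65 to 8.88). The interval of the locus takes in both of these densities. All 3 intervals cover counting error only. By midpoint, Pcdha had 4 peaks (15.5 per Mb, 4.21 to 39.6), Pcdhb 1 (3.90, 0.0987 to 21.7) and Pcdhg 4 (22.2, 6.05 to 56.9). The intervals of the 3 subclusters overlap. The 100 kb below Pcdha1 held no peak and no protein-coding gene, and the last peak below it ended 126322 bp from Pcdha1. The 100 kb above the cluster held 3 peaks.

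Several peaks of the locus lay at no start of the family. In the alpha subcluster a peak of score 10.3, from 37177663 to 37179601, fell between the Pcdhac2 start and the shared end. It lay 8056 bp from that end, which 13 of 14 Pcdha genes share within 10 bp, Pcdha6 being longer. A peak of score 7.76 and 2535 bp, from 37216241 to 37218775, was the only peak with its midpoint between Pcdha and Pcdhb, 47490 bp below Pcdhb1. Between Pcdhb and Pcdhg a peak of score 10.14, from 37655032 to 37656618, lay 5950 bp below Pcdhga1 by its midpoint. Enhancers of these promoters are known downstream of Pcdha and of Pcdhg, but the annotation used holds no enhancers and none of these peaks was matched to one. The end shared by all 21 Pcdhg genes was 26040 bp from the nearest peak.

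Some unrelated genes set among and beside the clustered ones had boundary peaks that scored above those of every clustered gene other than Pcdhac2. Taf7, a subunit gene of the general transcription factor TFIID that stands between Pcdhb and Pcdhg, had a boundary peak of score 20.28 from 37643313 to 37645370. Diaph1, a formin gene of actin assembly, and Hdac3, a histone deacetylase gene, shared the boundary peak of highest score in the window, 25.24, from 37934179 to 37935980. Diaph1 also held 2 interior peaks of 8.35 and 8.65, separated by 791 bp. Slc25a2, a mitochondrial carrier gene next to Taf7, had no boundary peak. The gene models Gm37013, Gm38666 and Gm38667 are not separate from the cluster. They start at 36952648, 36967631 and 36973802, beside Pcdha4 (36952689), Pcdha6 (36967625) and Pcdha7 (36973811), and end with Pcdhg at 37841873. Their lack of a boundary peak therefore repeats the calls at those positions.

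Not every numbered peak is listed, and the missing numbers show between which listed peaks the others fell. On chromosome 18 the listed numbers follow position with 0 steps back among 686 peaks, and 62.6% of the numbers are listed. From the last peak below the cluster to that at Pcdha12, 216 kb with the starts of Pcdha1 to Pcdha11, no number is missing. The same holds for a gap of 2040642 bp with 39 protein-coding genes on chromosome 4. Unbroken numbering therefore does not show that the list covers a stretch, and coverage was not tested. Over Pcdhb2 to Pcdhb22, 1 number is missing. Between the Pcdhga2 peak and the next one, 130 kb with 16 starts from Pcdhga3 to Pcdhga12, 5 are missing. Around Pcdhga1 and around Pcdhgc5 1 is missing each. Had each of these 8 unlisted peaks lain at a different start, 15 of 57 genes (26.3%) would have had a start peak. Over the whole list 66.1% of the numbers are listed. The matching bound for other genes was not computed, so the 26.3% has no share beside it. Their positions and scores were not analysed here.

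The family's solitary relatives, which have no shared exons and lie on several chromosomes, were counted beside them. A boundary peak was present at 7 of 57 clustered genes (12.3%, exact binomial 95% interval 5.08 to 23.7%), against 9 of 12 non-clustered protocadherin genes (75%, 42.8 to 94.5%). The interval of the clustered genes lies below the 55.4% of all protein-coding genes, and that of the non-clustered genes takes it in. With peaks at or above the list median alone, 1 of 57 clustered genes was left, against 33.3% of the non-clustered genes and 44.4% of all protein-coding genes. Genes of a family are not independent, so these intervals describe this list only. The scores of the non-clustered genes ran from 10.14 at Pcdh11x to 17.42 at Pcdh9, with a median of 11.6, and 6 of the 7 clustered start peaks scored below that range. Their peaks could be broad, 7247 bp at Pcdh10, 7070 bp at Pcdh7 and 5773 bp at Pcdh19, against at most 3564 bp at a clustered gene. Pcdh19 is known as a gene of epilepsy in people, and Pcdh10 for axon growth in the mouse forebrain. Pcdh1, the nearest of them to the clustered genes, had a peak of score 15.6 and 3733 bp. Pcdh12, Pcdh15 and Pcdh17 had no boundary peak, though Pcdh15 held 2 interior peaks, the higher of which, of score 8.35, lies over its RefSeq promoter.

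The promoters of Pcdh10 and Pcdh17 are shown because they are close in their number of CpG dinucleotides, while Pcdh10 has a listed H2AZ peak there and Pcdh17 has none. RefSeq promoters (GRCm38.p6), which reach from 250 bases before to 50 after a start, were found for 9 of the 12 non-clustered genes. A peak lay over the promoter of 8 of these 9, and Pcdh17 was the exception. The share of all promoters under a peak was not counted. With the wider window of 1 kb on either side of a start, 53.1% of protein-coding genes with known strand had a peak. Capitals mark each CG, and both lines read 5' to 3' on the plus strand. Pcdh10 lies at chr3:45378148-45378447 and its window was covered by the peak of score 11.04, whereas Pcdh17 at chr14:84443313-84443612 had none.
Pcdh10: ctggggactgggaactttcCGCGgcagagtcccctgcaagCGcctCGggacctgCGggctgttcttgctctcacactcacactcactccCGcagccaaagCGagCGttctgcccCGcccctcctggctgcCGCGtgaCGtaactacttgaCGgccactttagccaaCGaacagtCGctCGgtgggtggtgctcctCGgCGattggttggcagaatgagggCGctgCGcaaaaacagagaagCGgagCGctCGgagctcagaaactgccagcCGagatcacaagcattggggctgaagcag
Pcdh17: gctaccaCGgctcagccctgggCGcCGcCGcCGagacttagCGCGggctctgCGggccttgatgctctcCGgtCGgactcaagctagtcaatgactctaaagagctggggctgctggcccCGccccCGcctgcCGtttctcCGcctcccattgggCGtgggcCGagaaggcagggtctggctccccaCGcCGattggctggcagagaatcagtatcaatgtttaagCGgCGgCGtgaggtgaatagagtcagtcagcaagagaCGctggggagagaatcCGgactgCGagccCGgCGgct
Pcdh10 has 24 CG and Pcdh17 has 26, against a median of 7 over 32851 promoters, of which 20% hold at least as many as Pcdh10 and 16.9% at least as many as Pcdh17. The motif CG reads the same on both strands. Over all 9 genes the promoters hold 4 to 26, and Pcdh20, with 4, had a peak of score 14.02.

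Regulators that are known to act on clustered protocadherin promoters were counted as well. Of 17 genes 13 had a boundary peak (76.5%, exact binomial interval 50.1 to 93.2%), with a median score of 15.8. The interval takes in the 55.4% of all protein-coding genes. Ctcf, which encodes the insulator protein that joins many, but not all, of these promoters to their enhancers, had a peak of score 16.41. Among cohesin genes Rad21 scored 14.23 (18.79 at an interior peak), Smc3 11.33, Smc1a 10.49 and Stag2 10.44, while Stag1 had interior peaks alone. The cohesin release gene Wapl (28.04), Wiz (29.23), the neuronal repressor gene Rest (18.49) and Smchd1 (19.39), a silencer of clustered protocadherins in the mouse, scored higher at their boundaries. Nipbl, the cohesin loader gene, held an interior peak of 22.37. Setdb1 and the DNA methyltransferase gene Dnmt3b had no peak.

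Further gene families were counted in the same way, the olfactory receptor genes and all Zfp zinc finger genes, whether in arrays or alone. A boundary peak was present at 12.3% of the clustered protocadherin genes, against 1 of 1109 olfactory receptor genes (0.0902%) and 311 of 397 Zfp genes (78.3%). The labelled cell type was looked at through marker genes. Of 8 neural progenitor markers 7 had a boundary peak and Sox2 did not, against 1 of 4 neuron, 1 of 4 endothelial, 2 of 4 erythroid and 0 of 4 microglia markers. The exact binomial interval was 47.3 to 99.7% for progenitor markers and 0.631 to 80.6% for neuron and for endothelial markers. It was 6.76 to 93.2% for erythroid and 0 to 60.2% for microglia markers. Each interval takes in the 55.4% of all protein-coding genes, so these short lists do not establish the cell type. A peak at a gene is no measure of its transcription.

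**Figure D4:**
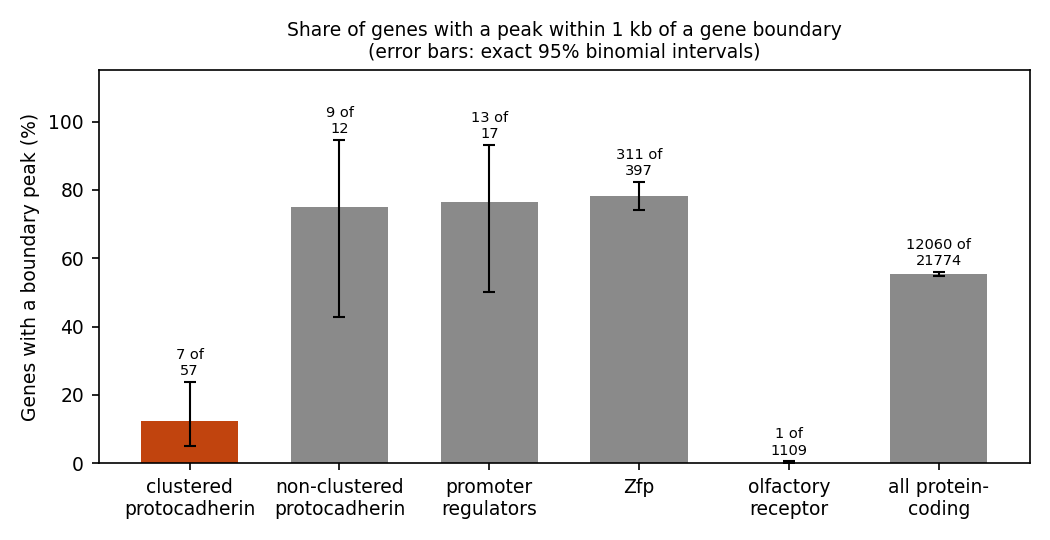
Bars give the share of genes in each list that have a peak within 1 kb of a gene boundary (%), with exact 95% binomial intervals and the counts above. The clustered protocadherin genes stand at 12.3%, the non-clustered ones at 75% and all protein-coding genes at 55.4%.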

How the data were processed

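The deposited file is a peak list with chromosome, start, end, name and a score per peak, without a header. What the score measures is not named, so it was used only to rank and describe peaks within this list. Peak names carry MACS, per the deposited file, with settings and control not given in the sources used here. The deposited start and end, other columns of the file, are in bases and count from 0; they are printed from 1. The submitters' processing notes name CASAVA 1.4, Bowtie2 2, FastQC and the build mm9. With protein-coding genes of GRCm38.p6 (RefSeq), 51.6% of peaks were within 1 kb of a boundary, against 11.4 and 11.0% after shifts of 100000 bp up or down, so positions were read as GRCm38. Left out were 46 of 21592 peaks numbered after the Y chromosome and 348 genes on other sequences. The numbers run to 32646 and 66.1% are listed.

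For the clustered genes the lower boundary was taken as the start; it differs between Pcdha and Pcdhg genes, which share the upper one. Starts of other genes followed the strand in the RefSeq promoter table. Every gene with a peak was named, and the rest were counted. Members, lists and types were chosen with earlier results of these data known, the C-type division and the Pcdh10 and Pcdh17 promoters after the peaks were seen. Alternatives were windows of 500 bp, 2 kb and 5 kb, higher-scoring peaks, midpoints, merged peaks and added flanks. Python 3.11.15, numpy 2.4.6, pandas 2.3.3, scipy 1.17.1 and matplotlib 3.10.9 were used. Gene calls were tested on simulated data and against a slower search over all pairs of genes and peaks.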

Additional observations from a re-analysis of the deposited data

How the results depend on the processing

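The 7 clustered genes with a start peak were the same genes with windows of 500 bp and of 2 kb. With windows of 5 kb Pcdhga3 and Pcdhgc5 joined them, and by peak midpoint Pcdhgc3 dropped out, leaving 6. With higher-scoring peaks alone (a score at or above the list median of 11.9), 1 gene, Pcdhac2, was left by its start and by either boundary, and 2 of the 12 peaks of the locus. Merging peaks or using midpoints left 12 peaks, but neither could have changed that count. Neighbouring locus peaks were at least 4057 bp apart against a merging limit of 500 bp, and none crossed an end of the locus. Adding the flanks gave a median score of 8.65 in place of 8.88. With higher-scoring peaks alone the share was 33.3% of non-clustered protocadherin genes, 64.5% of Zfp genes and 0% of olfactory receptor genes, against 44.4% of all protein-coding genes, so the non-clustered genes turned from above that share (75% against 55.4%) to below it. With windows of 5 kb it was 82.6% of Zfp and 1.17% of olfactory receptor genes. The other shares of the 4 comparison lists stayed within their main intervals. No paired analysis was possible because each group has 1 library. Depth is unknown, and a gene without a listed peak may have a weaker one.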
